A study of Mus musculus with 10 samples.

Results

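The genes of mitochondrial ribosomal proteins were examined in sorted cardiomyocytes after a myocardial infarction in Sprr1a-GFP mice. They were taken as the rows of the count table whose symbol starts with Mrpl or Mrps and a number, without the 6 rows named as pseudogenes, which left 78 of 56832 genes. Of these, 49 carry a large subunit symbol (Mrpl) and 29 a small subunit symbol (Mrps). The symbols alone chose them, and 77 had enough counts to be tested (48 large, 29 small). Mrpl53 had 0 counts in all 10 libraries. In the GENCODE M21 annotation 88.0% of its exon bases are shared with exons of another gene, and whether the counting dropped such reads was not tested.

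Mice of the Sprr1a-GFP genotype, tagged Hetz in every title, had an infarction at 12 weeks of age, and cells were freed from the heart 5 days later. Flow sorting gave GFP+ cells, labelled as cardiomyocytes of the border zone, and GFP− cells, labelled as those of the remote zone. The 10 libraries come from 5 animals, with a GFP+ and a GFP− library from every animal, and form 5 pairs. All groups share the reporter and the infarction, and no uninjured heart was analysed here. The GFP+ titles name both a DAPI-negative and a DAPI-positive sort, the GFP− titles a DAPI-negative sort alone, so GFP and that difference in sorting cannot be told apart. The identifiers form a 21A series (21A4, 21A5, 21A7) and a 17C series (17C1, 17C2), and values are given within each.

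Mitochondria carry their own ribosomes, which translate the few membrane proteins of the respiratory chain that mitochondrial DNA encodes. All proteins of these ribosomes are made from nuclear genes and imported, while their ribosomal RNAs, 12S and 16S, come from the mitochondrial genes mt-Rnr1 and mt-Rnr2. Many of the proteins descend from bacterial ribosomal proteins, and others were added in the mitochondrial lineage. Heart muscle is rich in mitochondria, and in humans defects of MRPL3, MRPL44 or MRPS22 cause cardiomyopathy with loss of respiratory chain activity. Symbols and structure differ in places: the products of Mrps18a and Mrps30 sit in the large subunit, and that of Mrps36 is now known as a part of the 2-oxoglutarate dehydrogenase complex.

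Promoters of these genes often hold sites for NRF1, for ETS factors such as GABPA, and for YY1, which are known activators of nuclear genes for mitochondrial proteins. RefSeq promoter windows of the earlier build GRCm38.p6 (250 bases before to 50 after the start) matched 69 members with 75 windows. Both strands were searched. The core of the NRF1 palindrome, CGCATGCG, lay in 7 windows (9.33%), against 1.87% of all 32851 windows in the table. Its looser form CGCANGCG, which includes the first, lay in 20 (26.7%), against 8.21%. The ETS core CCGGAAG lay in 26 (34.7%), against 8.86%, and the YY1 site AAGATGGCG in 8 (10.7%), against 1.4%. By gene the looser NRF1 core was found in 14 of 43 large and 6 of 26 small subunit genes, the ETS core in 15 and 11, and the YY1 site in 4 and 4. These matches describe letters in a window and are not shown to be bound. The promoters of 2 members whose GFP difference differed between the series (Mrpl30 and Mrpl42) and of 2 that were higher in GFP+ cells of every mouse (Mrpl57 and Mrpl32) are printed with matches in capitals. Mrpl30 lies at chr1:37890227-37890526 (plus strand), Mrpl42 at chr10:95501900-95502199 (minus), Mrpl57 at chr14:57825989-57826288 (plus) and Mrpl32 at chr13:14612988-14613287 (minus).
Mrpl30: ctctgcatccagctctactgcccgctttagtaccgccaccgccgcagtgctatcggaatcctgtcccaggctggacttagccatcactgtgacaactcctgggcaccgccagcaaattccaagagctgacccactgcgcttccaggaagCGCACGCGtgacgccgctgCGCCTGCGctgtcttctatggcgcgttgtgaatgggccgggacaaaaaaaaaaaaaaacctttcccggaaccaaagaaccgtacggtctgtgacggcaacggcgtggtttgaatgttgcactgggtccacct
Mrpl42: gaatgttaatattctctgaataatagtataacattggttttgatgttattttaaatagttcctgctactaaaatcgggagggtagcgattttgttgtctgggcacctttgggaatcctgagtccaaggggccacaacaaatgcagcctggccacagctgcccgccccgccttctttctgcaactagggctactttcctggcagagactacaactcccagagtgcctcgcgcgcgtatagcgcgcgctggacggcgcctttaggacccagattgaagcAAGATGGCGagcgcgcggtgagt
Mrpl57: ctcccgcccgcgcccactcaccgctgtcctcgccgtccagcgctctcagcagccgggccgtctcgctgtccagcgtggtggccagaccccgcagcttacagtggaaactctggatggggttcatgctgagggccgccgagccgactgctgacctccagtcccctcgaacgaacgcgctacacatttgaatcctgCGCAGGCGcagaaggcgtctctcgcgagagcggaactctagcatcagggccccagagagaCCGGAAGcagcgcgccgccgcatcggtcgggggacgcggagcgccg
Mrpl32: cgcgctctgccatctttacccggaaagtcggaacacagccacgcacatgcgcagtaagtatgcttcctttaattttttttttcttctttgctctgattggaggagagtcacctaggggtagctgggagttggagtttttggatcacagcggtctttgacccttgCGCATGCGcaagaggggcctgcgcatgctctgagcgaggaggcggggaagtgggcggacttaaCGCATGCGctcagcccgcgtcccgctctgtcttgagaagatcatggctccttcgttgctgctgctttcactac
The capitals mark the looser NRF1 core at 2 places in Mrpl30, the YY1 site in Mrpl42, the looser NRF1 core and then the ETS core in Mrpl57, and the NRF1 palindrome core at 2 places in Mrpl32. The windows of Mrps14, Mrpl24 and Mrpl55 held none of these letters.

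Libraries held 12244373 to 38879965 counts, of which mitochondrially encoded genes took between 35.7% and 91.2% in GFP+ libraries, against 9.2% to 62.0% in GFP− ones. Other genes kept 3417972 to 9935628 counts in GFP+ libraries, against 7285168 to 16918067 in GFP− ones. The median member had 56 to 248.5 counts per GFP+ library, against 205.5 to 451.5 per GFP− library. Sprr1a, for which the reporter is named, averaged 235 ± 70.5 CPM in GFP+ and 3.44 ± 3.43 CPM in GFP− libraries (SD, n = 5 each). CPM here divides counts by library sizes that were scaled by TMM factors. The 8 cardiomyocyte markers were above 0 in every library. They held 7.55%, 6.37% and 2.57% of counts outside mitochondrial genes in the GFP+ libraries of 21A4, 21A5 and 21A7, against 9.27%, 5.31% and 1.35% in the GFP− libraries. The same markers held, in 17C1 and 17C2, 1.97% and 3.34% in GFP+, against 7.0% and 7.5% in GFP− libraries. The 30 markers of fibroblasts, macrophages, endothelial and mural cells held 0.568%, 0.471% and 1.6% in the GFP+ libraries of 21A4, 21A5 and 21A7, against 2.37%, 3.75% and 4.78% in the GFP− libraries. They held, in 17C1 and 17C2, 0.0712% and 0.0827% in GFP+, against 0.0675% and 0.0941% in GFP− libraries. Of these 30 only Tcf21, Ptprc, Fcgr1 and Cx3cr1 were at 0 in any library, all of them of 17C mice.

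**Figure D1:**
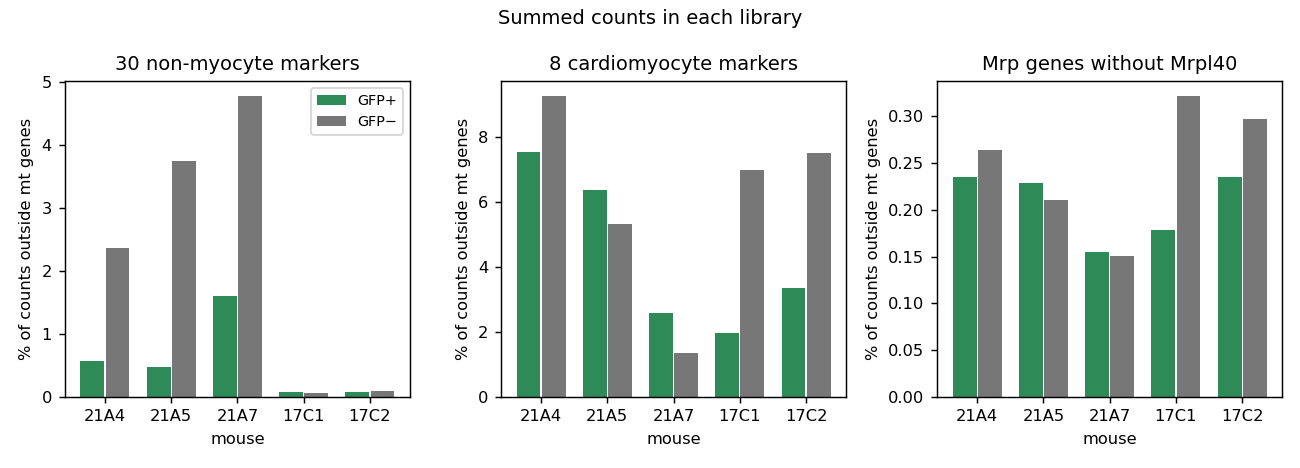
Bars give the share of counts outside mitochondrially encoded genes, in percent, held by 30 non-myocyte markers, by 8 cardiomyocyte markers and by the mitochondrial ribosomal protein genes without Mrpl40, for the GFP+ (green) and GFP− (grey) library of each mouse. Non-myocyte markers reach 2.37% to 4.78% in the GFP− libraries of 21A mice and lie under 0.1% in all 17C libraries.

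Over all 5 mice, no mitochondrial ribosomal protein gene passed the test between GFP+ and GFP− cells. With the mouse as a block, 0 of 77 members were called higher and 0 lower at an edgeR adjusted p of 0.05, where 0.858% of all 12115 tested genes were called (0.685% higher, 0.173% lower). At an unadjusted p under 0.05 there were 6 members higher and 0 lower, or 7.79% of members against 15.3% of all genes (938 higher, 920 lower). DESeq2 called 1 member higher (Mrps14, adjusted p = 0.00597) and limma voom 3 (Mrps14, Mrpl24 and Mrpl57). Without the block 0 were called, where 0.0825% of all genes were. Log2 fold changes ran from −0.59 (Mrps35) to 0.89 (Mrps14), with a median of 0.08 over members, against −0.04 over all genes. The GFP+ and GFP− ranges of CPM overlapped for every tested member, while 1.54% of all genes lay wholly higher and 0.916% wholly lower in GFP+ cells. In bulk libraries, fewer cells of a type and less RNA per cell cannot be told apart.

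The large and small subunit differed by less than the spread between mice. Over 5 mice the median log2 fold change was 0.10 for the 48 large and 0.07 for the 29 small subunit genes. Within a mouse, the large subunit median minus the small subunit median was −0.01 in 21A4, 0.07 in 21A5, 0.31 in 21A7, −0.09 in 17C1 and −0.10 in 17C2, a mean of 0.03 ± 0.17 (SD, n = 5 mice). Placing Mrps18a and Mrps30 with the large subunit and leaving out Mrps36 gave medians of 0.10 for the large and 0.08 for the small subunit. By descent, the median was 0.11 for the 48 members with bacterial relatives and 0.04 for 28 tested members of the mitochondrial lineage.

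The members' medians had opposite signs in the mice of the 21A and the 17C series. The median log2 ratio of GFP+ to GFP− CPM over 77 members was 0.31 in 21A4, 0.59 in 21A5 and 0.25 in 21A7, against −0.43 in 17C1 and −0.12 in 17C2. In 21A5 70 members were higher in the GFP+ library, and in 17C1 21 were. The median over all tested genes stayed between −0.02 and 0 in every mouse. The mean of the 5 medians was 0.12 ± 0.40 (SD, n = 5 mice). As a share of counts outside mitochondrial genes, with no such scaling, the members without Mrpl40 held 0.235%, 0.228% and 0.155% in the GFP+ libraries of 21A4, 21A5 and 21A7, against 0.264%, 0.210% and 0.150% in the GFP− libraries. The 17C1 and 17C2 mice had 0.179% and 0.235% in GFP+, against 0.322% and 0.297% in GFP− libraries. On this scale the 17C libraries differ in the same direction as their ratios, 21A4 goes the other way, and 21A5 and 21A7 are slightly higher in GFP+.

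**Figure D2:**
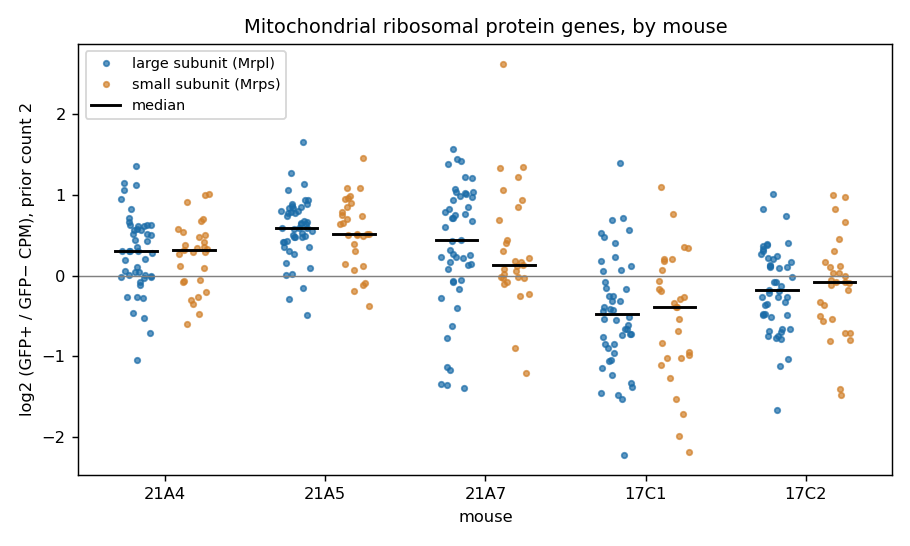
Each point is 1 gene's log2 ratio of GFP+ to GFP− CPM (prior count 2) in 1 mouse, for large (blue) and small subunit genes (orange), with black lines at the medians. Medians lie above 0 in the 3 21A mice and below 0 in the 2 17C mice; Mrpl40 in 17C1, at 8.66, is off the scale but counted in the median.

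Within the 21A mice the members' median log2 fold change was 0.42, with 66 above and 11 below 0, against −0.01 over all genes that were also tested in 5 mice. Mrpl57, a large subunit protein of the mitochondrial lineage, was the one member that rose in this fit (1.16 ± 0.28, SE; edgeR adjusted p = 0.0393). In that fit 6.72% of all genes were called, 2.67% higher and 4.05% lower. Without 21A4, without 21A5, without the mouse block, with library size alone or with the non-myocyte marker share as a covariate 0 members were called higher there. Without 21A7 4 were, with DESeq2 3 and with voom 7. The covariate turned the members' median relative to all genes to −0.093, against 0.48 without it. The marker shares of GFP+ and GFP− libraries do not overlap in these mice, so the covariate and GFP cannot be told apart here. In these mice 6 of 8 fibroblast, 6 of 8 macrophage and 4 of 8 endothelial markers also fell. Within the 17C mice the median was −0.36, with 22 above and 55 below 0, against −0.01 over all genes. There Mrps14 rose (0.98 ± 0.32; edgeR adjusted p = 0.0467) and Mrpl42 (−1.03 ± 0.26; 0.00947) and Mrps35 (−1.5 ± 0.30; 0.00132) fell. In that fit 13.6% of all genes were called, 6.08% higher and 7.52% lower. It has 2 mice, so its p-values rest mostly on the variance of other genes. Shares of called members, 1 of 77 in the 21A and 3 of 77 in the 17C mice, are below the background in both. Of 77 members 47 (61.0%) had a positive fold change in 21A and a negative one in 17C mice, as had 25.4% of the 10913 genes tested in both. A positive value in both was found for 19 members (24.7%, against 26.9% of all genes).

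The difference between the series was tested itself. The GFP+ to GFP− difference was larger in 21A than in 17C mice for 65 of 77 members by sign, with a median of 0.76 on the log2 scale, against 0.01 over all genes. For 5 members it passed (Mrps28, Mrpl30, Mrpl42, Mrps35 and Mrpl55), all in that direction. Over all genes 7.62% were called, 3.57% in that direction and 4.04% in the other. The members' 6.49% is close to the share for both directions and above that for their own direction, a difference that was not tested. At an unadjusted p under 0.05 there were 21 members (27.3%), 21 of them in that direction, against 25.7% of all genes (1587 in that direction, 1525 in the other). No member remained called without the mouse block, with library size alone as scaling, without mouse 17C1, 21A5 or 21A7, or with the non-myocyte marker share as a covariate, and 1, Mrpl42, without 21A4. The covariate also moved the 5-mouse median of the members, relative to all genes, to −0.33, against 0.12 without it. Within a mouse, GFP+ and GFP− libraries differed in that share in the 21A mice and hardly in the 17C mice. The covariate thus closely follows GFP in the 21A mice, and the series difference itself. So the 5-mouse median with it rests mostly on the 17C mice, whose own median was −0.36. It is no adjusted value of 5 mice. This shift and the calls lost were not assigned to the markers or to GFP, and that loss does not test the series difference.

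**Figure D3:**
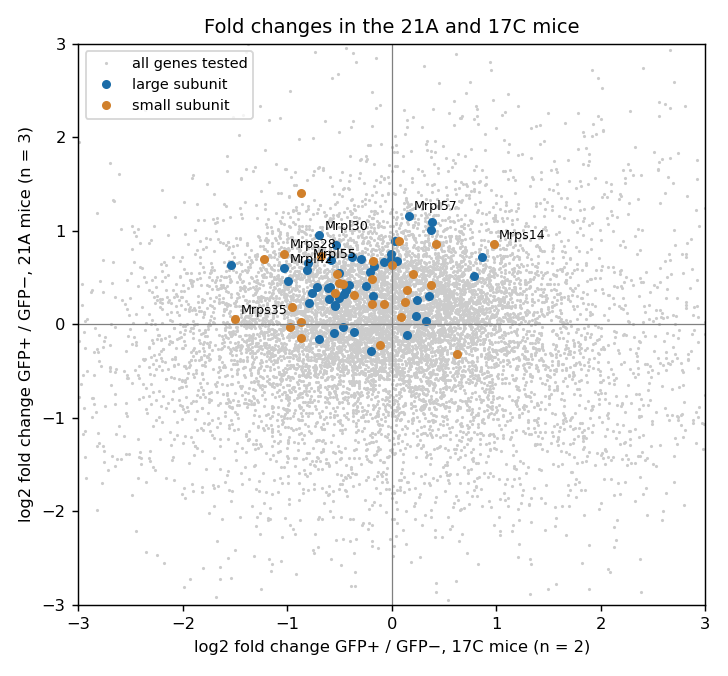
Log2 fold changes of GFP+ over GFP− cells in the 3 21A mice (vertical) against those in the 2 17C mice (horizontal), for large (blue) and small subunit genes (orange) and all genes tested in both (grey), shown between −3 and 3 and without Mrpl40. Of the 77 members 47 lie at the upper left, positive in 21A and negative in 17C mice.

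Mrpl42 is a large subunit protein added in the mitochondrial lineage. Its level was 69.9, 80.7 and 32.2 CPM in the GFP+ libraries of 21A4, 21A5 and 21A7, against 73.5, 47.3 and 15.7 CPM in the GFP− libraries. In 17C1 and 17C2 it was 86.8 and 99.4 CPM in GFP+, against 180 and 203 CPM in GFP− libraries. The 17C GFP− libraries stood above the other 8, and the series difference was 1.62 ± 0.39 (SE; edgeR adjusted p = 0.0399).

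Mrpl30, a large subunit protein with bacterial relatives, had 32.2, 28.2 and 16.8 CPM in the GFP+ libraries of 21A4, 21A5 and 21A7, against 21, 18.1 and 5.6 CPM in the GFP− libraries. The levels in 17C1 and 17C2 were 25.6 and 49.9 CPM in GFP+, against 56.8 and 60.2 CPM in GFP− libraries. GFP+ was the higher library in all 21A mice and the lower one in both 17C mice, and the series difference was 1.64 ± 0.42 (edgeR adjusted p = 0.0454). Mrpl55, also of the large subunit and with a bacterial relative, had 20.0, 12.8 and 3.84 CPM in the GFP+ libraries of 21A4, 21A5 and 21A7, against 13, 8.08 and 2.51 CPM in the GFP− libraries. In 17C1 and 17C2 it had 18.6 and 19.1 CPM in GFP+, against 36.3 and 30.4 CPM in GFP− libraries. Its pattern over the mice had the same signs, with a series difference of 1.45 ± 0.36 (edgeR adjusted p = 0.0403).

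In the small subunit, Mrps28 had 10.2, 10.7 and 7.47 CPM in the GFP+ libraries of 21A4, 21A5 and 21A7, against 7.82, 6.31 and 3.52 CPM in the GFP− libraries. The levels in 17C1 and 17C2 were 10.4 and 12.7 CPM in GFP+, against 25.2 and 22.3 CPM in GFP− libraries. The GFP+ levels of all mice were close together, and the GFP− levels differed between the series (difference 1.78 ± 0.43; edgeR adjusted p = 0.0403). Mrps35, a protein of the mitochondrial lineage, had 14.6, 15.0 and 4.27 CPM in the GFP+ libraries of 21A4, 21A5 and 21A7, against 18.6, 12.1 and 3.80 CPM in the GFP− libraries. In 17C1 and 17C2 it had 12.7 and 19.1 CPM in GFP+, against 36.9 and 53.7 CPM in GFP− libraries. It fell in the 17C mice, had mixed signs in the 21A mice (0.06 ± 0.27; edgeR adjusted p = 0.926), and its series difference was 1.55 ± 0.36 (0.0368).  With the non-myocyte marker share as a covariate over 5 mice, Mrps35 was called lower (edgeR adjusted p = 0.0277). That fit takes its GFP difference mostly from the 17C mice, where the share hardly differs within a mouse.

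**Figure D4:**
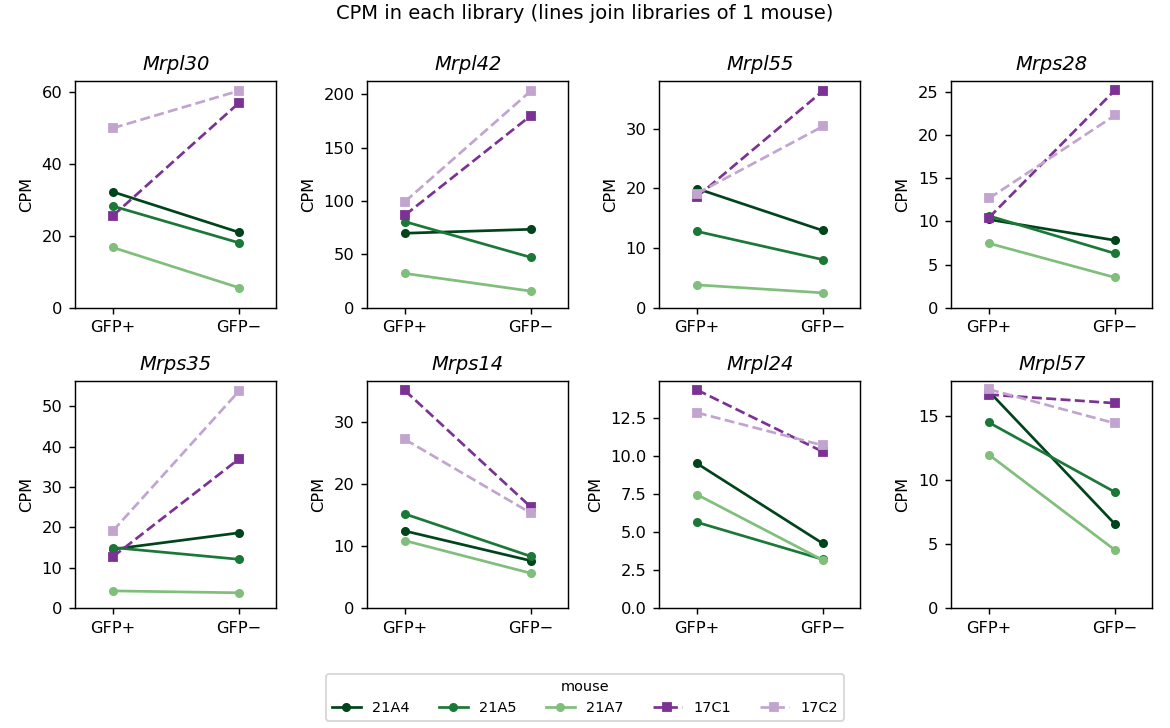
CPM of 8 members in the GFP+ and GFP− library of each mouse, with 1 line per mouse (circles and solid lines 21A, squares and dashed lines 17C) and each axis starting at 0. In the first 5 panels the 17C lines end higher at GFP−, and in the last 3 all 5 lines are higher at GFP+.

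Higher levels in the GFP+ library of all 5 mice were found for 4 members (Mrps14, Mrpl24, Mrpl32 and Mrpl57), which is 5.19% against 9.14% of all genes. Lower levels in all 5 were found for none, against 8.02% of all genes. Mrps14, a small subunit protein with bacterial relatives, had 12.4, 15.2, 10.9, 35.1 and 27.2 CPM in the GFP+ libraries of 21A4, 21A5, 21A7, 17C1 and 17C2, against 7.65, 8.36, 5.64, 16.3 and 15.4 CPM in the GFP− libraries. The GFP+ library was the higher one in every mouse, and the 17C libraries stood above the 21A ones within each group. The log2 fold change over 5 mice was 0.89 ± 0.20 (SE; edgeR adjusted p = 0.0928), and the series difference was −0.13 ± 0.36 (0.867).

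Mrpl24, which binds ribosomal RNA near the exit of the peptide tunnel in bacterial ribosomes, had 9.52, 5.65, 7.47, 14.4 and 12.9 CPM in the GFP+ libraries of 21A4, 21A5, 21A7, 17C1 and 17C2, against 4.26, 3.21, 3.16, 10.3 and 10.7 CPM in the GFP− libraries. The groups overlapped because the 17C libraries were high in both (log2 fold change 0.79 ± 0.27; edgeR adjusted p = 0.214). Rrnad1 shares 26.3% of its exon bases, so the reads of this pair are uncertain. Mrpl32, whose processing by the mitochondrial m-AAA protease is needed for ribosome assembly, averaged 10.9 ± 4.94 CPM in GFP+ and 7.25 ± 4.79 CPM in GFP− libraries (SD, n = 5 each; log2 fold change 0.74 ± 0.26, edgeR adjusted p = 0.236). Mrpl57 averaged 15.4 ± 2.19 CPM in GFP+ and 10.1 ± 4.94 CPM in GFP− libraries (0.75 ± 0.28, edgeR adjusted p = 0.258). Its GFP+ levels lay between 12 and 17 CPM in all mice, while GFP− levels were 4.54 to 9.05 CPM in 21A and 14.4 to 16.0 CPM in 17C mice. Mrpl20 and Mrps23 were higher in 4 of 5 mice, with log2 fold changes of 0.76 ± 0.28 and 0.67 ± 0.24 and edgeR adjusted p of 0.257 and 0.240.

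Mrpl3, Mrpl44 and Mrps22, the members named above for human cardiomyopathy, did not pass the test over 5 mice. Mrpl3 averaged 18.9 ± 3.75 CPM in GFP+ and 19.5 ± 10.2 CPM in GFP− libraries (SD, n = 5 each). Mrpl44 averaged 10.8 ± 3.02 CPM in GFP+ and 13.3 ± 8.35 CPM in GFP− libraries, and Mrps22 averaged 9.61 ± 4.04 CPM in GFP+ and 8.13 ± 3.03 CPM in GFP− libraries. Their log2 fold changes over 5 mice were 0.12 ± 0.27, −0.07 ± 0.30 and 0.17 ± 0.31 (SE), with edgeR adjusted p of 0.883, 0.942 and 0.845. Mrpl12, the stalk protein that also binds the mitochondrial RNA polymerase, averaged 45.8 ± 15.0 CPM in GFP+ and 44.3 ± 18.8 CPM in GFP− libraries (0.14 ± 0.25; edgeR adjusted p = 0.850). Mrps9, a small subunit protein with bacterial relatives, averaged 13 ± 3.9 CPM in GFP+ and 19.5 ± 9.96 CPM in GFP− libraries. It was lower in 4 of 5 mice (−0.45 ± 0.23; edgeR adjusted p = 0.415). Members under symbols that depart from the structure, Mrps18a (0.27 ± 0.21), Mrps30 (−0.34 ± 0.32) and Mrps36 (−0.04 ± 0.25), also did not pass. The same holds for Mrps18b (0.38 ± 0.51) and Mrps18c (0.07 ± 0.47), the other relatives of bacterial S18, whose standard errors are larger than their fold changes.

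Other members with a small p in the series test did not pass it. Mrps15, a small subunit protein with bacterial relatives, had 15.9, 16.6 and 18.8 CPM in the GFP+ libraries of 21A4, 21A5 and 21A7, against 12.7, 11.7 and 8.03 CPM in the GFP− libraries. The 17C1 and 17C2 mice had 6.74 and 15.1 CPM in GFP+, against 26.9 and 21.4 CPM in GFP− libraries. Its GFP+ library was the higher one in the 21A mice and the lower one in the 17C mice, with a series difference of 1.91 ± 0.52 (edgeR adjusted p = 0.0541). Mrpl51 (1.27 ± 0.34; edgeR adjusted p = 0.0515), Mrps21 (1.40 ± 0.41; 0.0662), Mrpl47 (2.16 ± 0.72; 0.0946) and Mrps24 (1.06 ± 0.40; 0.131) had a series difference of the same sign, although Mrpl47 was lower in GFP+ in 21A5 and Mrps24 higher in 17C2. Mrps12, the small subunit protein of the decoding site, had the opposite one (−0.95 ± 0.61; edgeR adjusted p = 0.370). Over 5 mice Mrpl16 (0.53 ± 0.28) and Mrps6 (0.55 ± 0.33) lay above 0 and Mrpl22 (−0.40 ± 0.32) and Mrpl39 (−0.31 ± 0.32) below it, with edgeR adjusted p of 0.410, 0.486, 0.614 and 0.706.

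Levels were also compared per kilobase of merged exons in GENCODE M21, without Mrpl40 and Mrpl53. The median was 4.87 CPM per kilobase in GFP+ and 4.51 in GFP− libraries for large subunit genes, and 2.7 in GFP+ and 3.14 in GFP− libraries for small subunit genes. By the mean over the 5 libraries of a group, Mrps21 stood highest in both groups, with 30.7 CPM per kilobase in GFP+ and 33.9 in GFP− libraries. Mrpl12 had 29.9 in GFP+ and 28.9 in GFP− libraries, and Mrpl42 20.0 in GFP+ and 28.2 in GFP− libraries. These means pool series whose levels differ, and the order was not tested within libraries. Merged exons include those of rare transcripts, which lowers the value of genes that have them, and exons of 33 members overlap those of another gene.

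Mrpl40, a large subunit protein of the mitochondrial lineage, stood apart in a single library and was singled out after its values were seen. It had 36130 counts in the GFP+ library of 17C1, 3929 CPM, and 3.09 to 10.9 CPM in the other 9 libraries, so that it was 362-fold above the next. It took 0.566% of the counts outside mitochondrial genes there (exact binomial 95% interval 0.560 to 0.572, counting error only), 76.0% of all counts of the members, and rank 10 among genes outside the mitochondrial genome. In that library 1 tested gene stood over 50-fold above the next library, and Mrpl40 was that gene. With it, the log2 fold change of Mrpl40 over 5 mice was 0.59 ± 1.16 (edgeR adjusted p = 0.857), and without mouse 17C1 it was −0.16 relative to all genes.

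**Figure D5:**
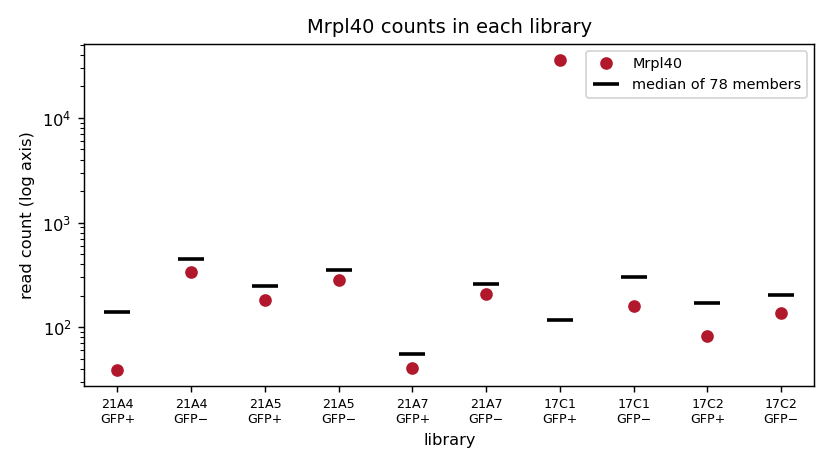
Read counts of Mrpl40 (red points) and the median count of the 78 members (black bars) in each library, on a log axis, GFP+ beside GFP− for each mouse. The GFP+ library of 17C1 has 36130 counts, against 39 to 338 in the other 9.

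Counts of the ribosomal RNAs that these proteins bind varied more between mice, as GFP+ to GFP− ratios, than the members' median. The 12S RNA (mt-Rnr1) held 21.2%, 10.5%, 27.2%, 20.3% and 15.2% of all counts in the GFP+ libraries of 21A4, 21A5, 21A7, 17C1 and 17C2, against 10.3%, 8.02%, 2.83%, 22.6% and 19.1% in the GFP− libraries. The 16S RNA (mt-Rnr2) held 43.1%, 20.8%, 49.4%, 27.0% and 30.3% in the GFP+ libraries, against 20.2%, 14.8%, 5.19%, 35.5% and 34.9% in the GFP− libraries. Both were higher in GFP+ in the 3 21A mice and lower in both 17C mice, and the log2 fold changes, 1.55 ± 1.87 for mt-Rnr1 and 1.56 ± 2.14 for mt-Rnr2, did not pass (edgeR adjusted p = 0.756 and 0.789). The low-input kit primes from poly(A) tails, so counts of ribosomal RNAs are no measure of their amounts.

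Other genes of mitochondrial gene expression were counted from lists. Over 5 mice, 0 genes passed in either direction among 14 translation factors (median log2 fold change −0.12), 22 genes for transfer RNA synthetases and amidotransferase subunits (0.11), 28 tested assembly factors (−0.02), 10 tested genes of mitochondrial transcription and DNA replication (−0.06), 9 nuclear regulators (−0.37) and 5 ribosomal proteins with other names (0.15). The last are Dap3, Ptcd3, Chchd1, Aurkaip1 and Gadd45gip1. The smallest p was that of Mpv17l2, an assembly factor of the large subunit, with 1.15 ± 0.37 and higher levels in 5 of 5 mice (edgeR adjusted p = 0.198). The pairs with the smallest p in the other lists did not pass either. Iars2 and Nars2, which charge transfer RNAs with isoleucine and asparagine, were higher in 5 of 5 mice, with 0.56 ± 0.21 and 0.88 ± 0.37 (edgeR adjusted p = 0.266 and 0.301). Of all genes 9.14% were higher in 5 of 5 mice. Mtrf1l, a release factor, lay at −2.55 ± 1.01 (edgeR adjusted p = 0.280) and Chchd1, a small subunit protein, at 0.45 (0.506). Next by p in their lists were Mtfmt (0.93 ± 0.54, edgeR adjusted p = 0.463), Gadd45gip1 (0.45 ± 0.45, 0.701) and, behind Mpv17l2, Fastkd2 (0.73 ± 0.33, 0.339). In mitochondrial transcription and DNA replication the pair was Twnk (−0.60 ± 0.35, edgeR adjusted p = 0.474) and Polg2 (−1.03 ± 0.74, 0.565). Gabpa and Yy1, whose sites were searched in the promoters, lay at −0.43 ± 0.20 and −0.37 ± 0.21 (edgeR adjusted p = 0.362 and 0.441). Both were lower in GFP+ cells of 5 of 5 mice, as were 8.02% of all genes. Nrf1, whose sites were also searched, lay at −0.49 ± 0.39 and was lower in 4 of 5 mice (edgeR adjusted p = 0.610).

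Within the 21A mice 1 of 88 tested genes of these lists rose (1.14%), a share below the 2.67% of all genes called higher there. It was Afg3l2, a subunit of the m-AAA protease (0.91 ± 0.22, edgeR adjusted p = 0.0405). Within the 17C mice 4 of 88 tested genes of these lists fell (4.55%), a share below the 7.52% of all genes called lower there, and 6 of 8 cardiomyocyte markers fell too. Ppargc1a, the coactivator that drives mitochondrial gene programmes, fell by 2.39 ± 0.35 on the log2 scale (edgeR adjusted p = 4.53e-05), and its relative Ppargc1b by 1.66 ± 0.39 (0.00551). Oxa1l, which inserts newly made proteins into the inner membrane, fell by 1.25 ± 0.39 (edgeR adjusted p = 0.0331), and Twnk, the helicase of mitochondrial DNA, by 1.37 ± 0.44 (0.0426). Ppargc1a had 16.1, 17.3 and 11.4 CPM in the GFP+ libraries of 21A4, 21A5 and 21A7, against 26.4, 14.9 and 2.02 CPM in the GFP− libraries. The levels in 17C1 and 17C2 were 5.76 and 11.0 CPM in GFP+, against 41.9 and 43.0 CPM in GFP− libraries. The difference between the series passed for Ppargc1b (2.57 ± 0.47; edgeR adjusted p = 0.0236) and not for Ppargc1a (2.98 ± 0.80; 0.0512).

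Genes of respiratory complex I, taken by symbol, had medians of the same sign as the members in every mouse. The 38 tested genes with symbols of complex I subunits (Nduf) had a median log2 ratio of 0.19, 0.59 and 0.91 in 21A4, 21A5 and 21A7, against −1.06 and −0.85 in 17C1 and 17C2. Within the 17C mice 27 of the 38 fell, and the series difference passed for 25, with a median of 1.58, against 5 of 77 and 0.76 for the mitochondrial ribosomal proteins. The 81 tested genes of cytosolic ribosomal proteins had medians above 0 in every mouse, 0.39, 0.07 and 0.21 in 21A4, 21A5 and 21A7, against 0.54 and 0.68 in 17C1 and 17C2. Their series difference had a median of −0.39, opposite in sign to that of the mitochondrial ribosomal proteins. The 8 cardiomyocyte markers had medians of −0.16, 0.28 and 1.24 in 21A4, 21A5 and 21A7, against −1.76 and −1.27 in 17C1 and 17C2. The 8 fibroblast markers had a median fold change of −1.92 in 21A mice, where 6 fell, and 1.03 in 17C mice, where 3 of 7 tested rose. The cardiomyocyte markers had the sign of the members' median in 4 of 5 mice, and the fibroblast markers the opposite sign in both series. In the 21A mice the medians of macrophage, endothelial and mural markers were −1.80, −1.38 and −0.74, opposite in sign to the members. In the 17C mice these were −0.03, −0.53 and −1.37, of the same sign as the members. The macrophage median there rests on 5 tested markers, 2 above and 3 below 0. Against the mural medians, 1 of 6 mural markers was called higher in each series, and 1 was called lower in each. The part of these markers in the members' values was not tested. The covariate fit given above cannot tell them apart from GFP in the 21A mice.

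The gene outside the list whose ratios over the 5 mice lay nearest to the members' mean ratio was Coq6, an enzyme of coenzyme Q synthesis. Its Euclidean distance was 0.128 over 5 mice, among 4644 genes of at least 10 CPM. The mean includes Mrpl40, whose ratio in 17C1 was 8.66, and distances to a mean without it were not computed. Tmem245, Exoc3, Eif2b5 and Psmd2 followed, at distances of 0.245 to 0.273.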

How the data were processed

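RNA of sorted cells was sequenced as 10 libraries of 5 mice. Per the labels' protocols, total RNA was amplified with a SMARTer low-input kit and made into libraries with Nextera XT, which does not mark strand. What was deposited is 1 table of raw counts for 56832 genes, in whole numbers. The tools named in the submitters' processing notes are fastp 0.23.1, STAR 2.7.9a and featureCounts of Subread 2.0.1, with the build GRCm39. For the annotation release and reads shared by genes, the answer is not given in the sources used here. No molecular identifiers are named, so intervals cover counting error only.

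Groups and mice were taken from the labels, and 0 pairs of libraries held identical values. Libraries with 1 animal identifier are pairs. Their deviations from group means correlated over genes with r of 0.161 (21A4), 0.0741 (21A5), 0.637 (21A7), 0.292 (17C1) and 0.397 (17C2). Values for libraries of different mice are not given, so these do not test the pairing. The counts went into two-sided quasi-likelihood tests of edgeR 4.0.16 under R 4.3.3 (mouse as a block, filterByExpr, TMM, Benjamini-Hochberg adjustment over all tested genes, threshold 0.05), for all mice, each series and the difference between series. The genes tested were 12115 for all mice, 13221 for 21A and 11107 for 17C mice. Standard errors are the log2 fold change over the square root of F, and log2 ratios use a prior count of 2. Within a group each library is another animal. With the mouse as a block, p-values measure how the GFP+ to GFP− difference within a mouse varies between mice. The test also draws each gene's variance toward that of other genes. The 17C fit has 2 mice, so its p-values rest mostly on the variance of other genes and hardly on spread between these mice. Without the block, p-values measure the spread between libraries of a group.

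The members, lists and tests were chosen with earlier results of these data known. Named were, per subunit, the 5 genes with the smallest p in the 5-mouse fit and in the test between series, the 2 highest and 2 lowest fold changes, and preset genes, from which the text gives those its comparisons turn on. In each list the genes called and the 2 with the smallest p were named. The sets of Nduf and cytosolic ribosomal protein genes were taken by symbol. Alternatives were no block, scaling by DESeq2 size factors or by library size alone, a filter of 5 CPM in 5 libraries or none, DESeq2 1.42.0, limma 3.58.1 (voom with quality weights), mitochondrially encoded genes left out, the non-myocyte marker share as a covariate, subunits by structure, and each mouse left out. Exon lengths and overlaps come from GENCODE M21 (GRCm38), matched by symbol for 78 members. No coordinates were converted between builds.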

Additional observations from a re-analysis of the deposited data

Results flagged for a closer look

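The GFP+ library of 17C1 lay far from the other 4 GFP+ libraries in Mrpl40, with 3929 CPM, against 3.09 to 8.45 CPM. The GFP+ library of 21A7 lay below the other 4 in Mrpl58, a peptidyl-tRNA hydrolase of the large subunit, with 5.02 CPM, against 10.7 to 11.1 CPM. It had 91.2% of its counts in mitochondrial genes. In 68 such checks, chance alone would mark about 1 in 20 groups.

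For 5 members the difference between GFP+ and GFP− cells was itself different between the 21A and the 17C mice, by an edgeR test of that difference. On the log2 scale, 21A minus 17C, it was 1.78 for Mrps28, 1.64 for Mrpl30, 1.62 for Mrpl42, 1.55 for Mrps35 and 1.45 for Mrpl55. These are 6.49% of the members, against 7.62% of all genes in either direction and 3.57% in that direction. All 5 calls were lost without the mouse block, with library size alone and with the non-myocyte marker share as a covariate. In the 21A mice the non-myocyte markers held 0.471% to 1.6% in GFP+, against 2.37% to 4.78% in GFP− libraries, without overlap. In the 17C mice they held 0.0712% to 0.0827% in GFP+, against 0.0675% to 0.0941% in GFP− libraries. The covariate and GFP thus cannot be told apart in the 21A mice. Since the share hardly differs within the 17C mice, the covariate also closely follows the series difference itself. The calls lost with it therefore do not test that difference, and why they were lost was not tested.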

How the results depend on the processing

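Relative to all genes of the same fit, the median log2 fold change over 5 mice was 0.12 for all members, 0.14 for the large and 0.11 for the small subunit. With the non-myocyte marker share as a covariate these were −0.33, −0.34 and −0.33. That share follows GFP in the 21A mice, so it cannot be told apart from GFP there, and the values with it rest mostly on the 17C mice. With 1 mouse left out the members' median lay between −0.02 (without 21A5) and 0.29 (without 17C1). Against 0 members called, DESeq2 called 1 higher, limma voom 3 higher and the covariate fit 1 lower. In the lists of other genes, against 0, 1 gene was higher with DESeq2 and with voom, and 1 lower with no filter, with DESeq2 and with the covariate. Without the replicate block the 5-mouse count of members stayed at 0.

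In 21A mice 1 member was called higher, against 0 without the replicate block, with library size alone and with the covariate, 3 with no filter and with DESeq2, 7 with voom, and 0 to 4 with 1 mouse left out (0 without 21A4 or 21A5, 4 without 21A7). The relative median there, 0.48, became −0.093 with the covariate. In 17C mice 1 member was called higher, against 2 with DESeq2 size factors, with voom and without mitochondrial genes, 3 with the stricter filter and 0 with DESeq2. The 2 called lower became 1 with library size alone, 4 with the stricter filter and 5 without mitochondrial genes. With 2 mice, the 17C comparison with the covariate or with a mouse left out could not be fitted.

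Of the difference between series, the 5 higher calls became 0 without the replicate block, with library size alone and with the covariate, 8 with no filter, 9 with DESeq2, and 0 to 4 with 1 mouse left out. The 0 lower calls became 1 with no filter and with voom, and 0 to 1 with 1 mouse left out. Its relative median, 0.75, became 0.25 with the covariate, which closely follows the series difference itself and so does not test it. The causes of these changes were not tested. Library size alone moved the median of all genes by −1.15 over 5 mice. Of 459 values of 33 named members under 14 settings, 56 changed sign, in 19 genes, and 0 of these after a call. Calls were few, 5 among these values and 0 in the main 5-mouse fit, so a reversal after a call could hardly arise. The median member had 56 counts in the GFP+ library of 21A7 and 117.5 to 248.5 in the other GFP+ libraries, which limits the precision of that mouse's ratios.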
